A study of Danio rerio with 6 samples.

Results

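The genes described here encode the ligands, receptors and feedback proteins of the fibroblast growth factor (FGF), epidermal growth factor (EGF), insulin-like growth factor (IGF), hepatocyte growth factor (HGF), platelet-derived growth factor (PDGF) and Hedgehog pathways in guts of zebrafish larvae (Danio rerio). They were taken by symbol from a count table of 15419 genes, of which 100 matched the patterns for these families. Of the 100, 90 belong to the pathways and 10 share only a name stem: igf2bp1, igf2bp2a, igf2bp2b and igf2bp3 (RNA-binding proteins), spryd3, spryd4, spryd7a and spryd7b (SPRY domain proteins), and fgfr1op and fgfr1op2 (named for a fusion partner of an FGF receptor). The patterns for areg and ereg found no row, and no row of hgfb, pdgfba or pdgfbb was among those analysed here.

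Bulk RNA sequencing was done on wild-type guts taken out by dissection, each library being a pool of 10 to 15 guts. In 3 libraries (cut_wt, here cut guts) the whole organ had been transected 24 h earlier. The other 3 libraries (wt, here uncut guts) carry no mention of transection. The labels give 5 days post-fertilization for the larvae, without saying whether at transection or at collection, and they call the libraries biological replicates without saying whether the pools came from separate clutches, so p-values measure the spread between these pools. Total counts were 21525093 to 25131242 in cut guts and 21835608 to 23624582 in uncut guts, and 1 count was worth 0.0384 to 0.0465 CPM, the unit of counts scaled to a common library size that is used throughout. A gene at 0 counts could therefore lie at up to 0.115 to 0.140 CPM (3 counts, counting error only).

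Markers of the labelled tissue were counted in every library, though no level had been set that their sum had to reach. The 16 enterocyte markers summed to 30743 to 40763 CPM in cut guts and 39224 to 42253 CPM in uncut guts. The largest part of the sum was apobb.1. One of the 16, fabp2, had only 0.180 to 0.423 CPM in cut guts and 0.136 to 0.324 CPM in uncut guts. The dissections also held other organs. Exocrine pancreas markers (14 of 14 found) summed to 59308 to 122225 CPM in cut guts and 31464 to 107015 CPM in uncut guts. Hepatocyte markers (13 of 13 found, 0 at 0 counts) summed to 5977 to 11144 CPM in cut guts and 7251 to 18600 CPM in uncut guts. Skeletal muscle markers (14 of 14 found) summed to 2803 to 6365 CPM in cut guts and 778 to 9556 CPM in uncut guts. Macrophage markers (7 of 10 found, with mpeg1.1 at 0) did not overlap, at 114 to 147 CPM in cut guts and 54.1 to 66.7 CPM in uncut guts. In bulk samples like these, fewer cells of a type and less RNA per cell cannot be told apart. On the first principal component of all genes (47.0% of the variance) replicate 1 of each group lay at the low end, at -33.1 for cut and -44.3 for uncut guts, and uncut replicate 2 at the high end, at 48.5. Several results that rest on the replicate 1 libraries are also given without them.

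FGFs bind receptor tyrosine kinases on neighbouring cells and signal through Ras and MAP kinases. That signal switches on its own inhibitors, the Sprouty and Spred proteins, and the ETS factors of the etv4 and etv5 family. EGF family ligands act in the same way through ErbB receptors, IGFs through IGF1 receptors under the control of IGF binding proteins in the extracellular fluid, HGF through MET, and PDGFs from epithelium or endothelium on mesenchyme. Hedgehog ligands made by gut epithelium act on the mesenchyme beneath it by lifting the inhibition that Patched receptors place on the pathway, which works through Gli factors and raises ptch1 and gli1 as targets.

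In cut guts, 24 h after transection, the hormone gene fgf21 was 3.77-fold higher than in uncut guts. The IGF ligand gene igf2a was 2.18-fold lower and the FGF receptor gene fgfr1a 1.54-fold lower. Of these 3, DESeq2 called fgf21 and igf2a and the main test, edgeR, called 0. The genes of EGF, ErbB, HGF, PDGF and Hedgehog signalling held 0 members with an unadjusted p under 0.05 in edgeR, and DESeq2 called 0 of them. Of the 100 genes, 75 passed the expression filter and were tested. In the edgeR quasi-likelihood test 0 of the 75 passed an adjusted p of 0.05 in either direction. Over the 11466 genes tested 0.0174% passed, 2 genes that are not among these families.

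The unadjusted p was under 0.05 for 2 higher members (fgf21 and fgf24), where 4.32% of all genes were higher at that level. It was so for 5 lower members (igf2a, igf2b, igfbp2a, igfbp7 and fgfr1a), where 3.55% of all genes were lower. Both directions together made 9.33% of the members tested (10.8% without the name-only matches) against 7.87% of all genes, so the pooled share was close to the background. By direction, more members were lower than higher, while over all genes more were higher. DESeq2 called fgf21 higher, where it called 0.864% of all genes higher, and igf2a lower, where it called 0.597% lower. The libraries of the groups did not overlap for 4 members with cut above uncut guts (7.48% of all genes) and 9 with cut below (6.38%), together 17.3% of those tested against 13.9% of all genes. Of the 4, fgf8a passed the expression filter only through the cut libraries, where it was higher. Of the members tested, 30 had a positive and 45 a negative log2 fold change. The positive ones made up 40% of them against 50.5% of all genes, and the median was -0.10 over the members and 0.00 over all genes.

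Same-numbered libraries deviated together over the genes tested, at correlations of 0.450, 0.512 and 0.177 in pairs 1, 2 and 3. Ratios within pairs are given on that basis. Pair 3 lay little above the highest value between libraries of different numbers (0.118), so by this measure its pairing is less certain. In all 3 pairs 9 members were higher in cut guts (12%, against 20% of all genes) and 20 were lower (26.7%, against 17% of all genes). With the replicate block (the replicate number as a further term), edgeR again passed 0 members, where it passed 0.0349% of all genes. Its unadjusted p was then under 0.05 for 3 higher members (6.99% of all genes) and 8 lower ones (6.11%). The 4 members added were spry2 on the higher side and igf1, fgfr2 and gli1 on the lower side. DESeq2 with the block called fgf21 higher (1.43% of all genes) and igf2a and igfbp2a lower (1.08%).

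Single libraries moved the unadjusted counts. The 2 higher members became 1 without cut replicate 1, cut replicate 2, uncut replicate 2 or uncut replicate 3, and 5 without uncut replicate 1. The 5 lower members became 9 without cut replicate 1 and 8 without uncut replicate 2. The shares of all genes with single libraries left out are not given here, so these counts are not read as a result about the members. When replicate 1 was left out of both groups, the counts were 5 higher members (9.05% of all genes) and 13 lower ones (10.2%), and 0 passed the adjusted threshold, where 2.37% of all genes did. The higher members then included fgf8a, which passed the expression filter only through the cut libraries. DESeq2 on the same 4 libraries called fgf21 and spry2 higher (2.47% of all genes) and igf2a lower (3.69%).

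**Figure D1:**
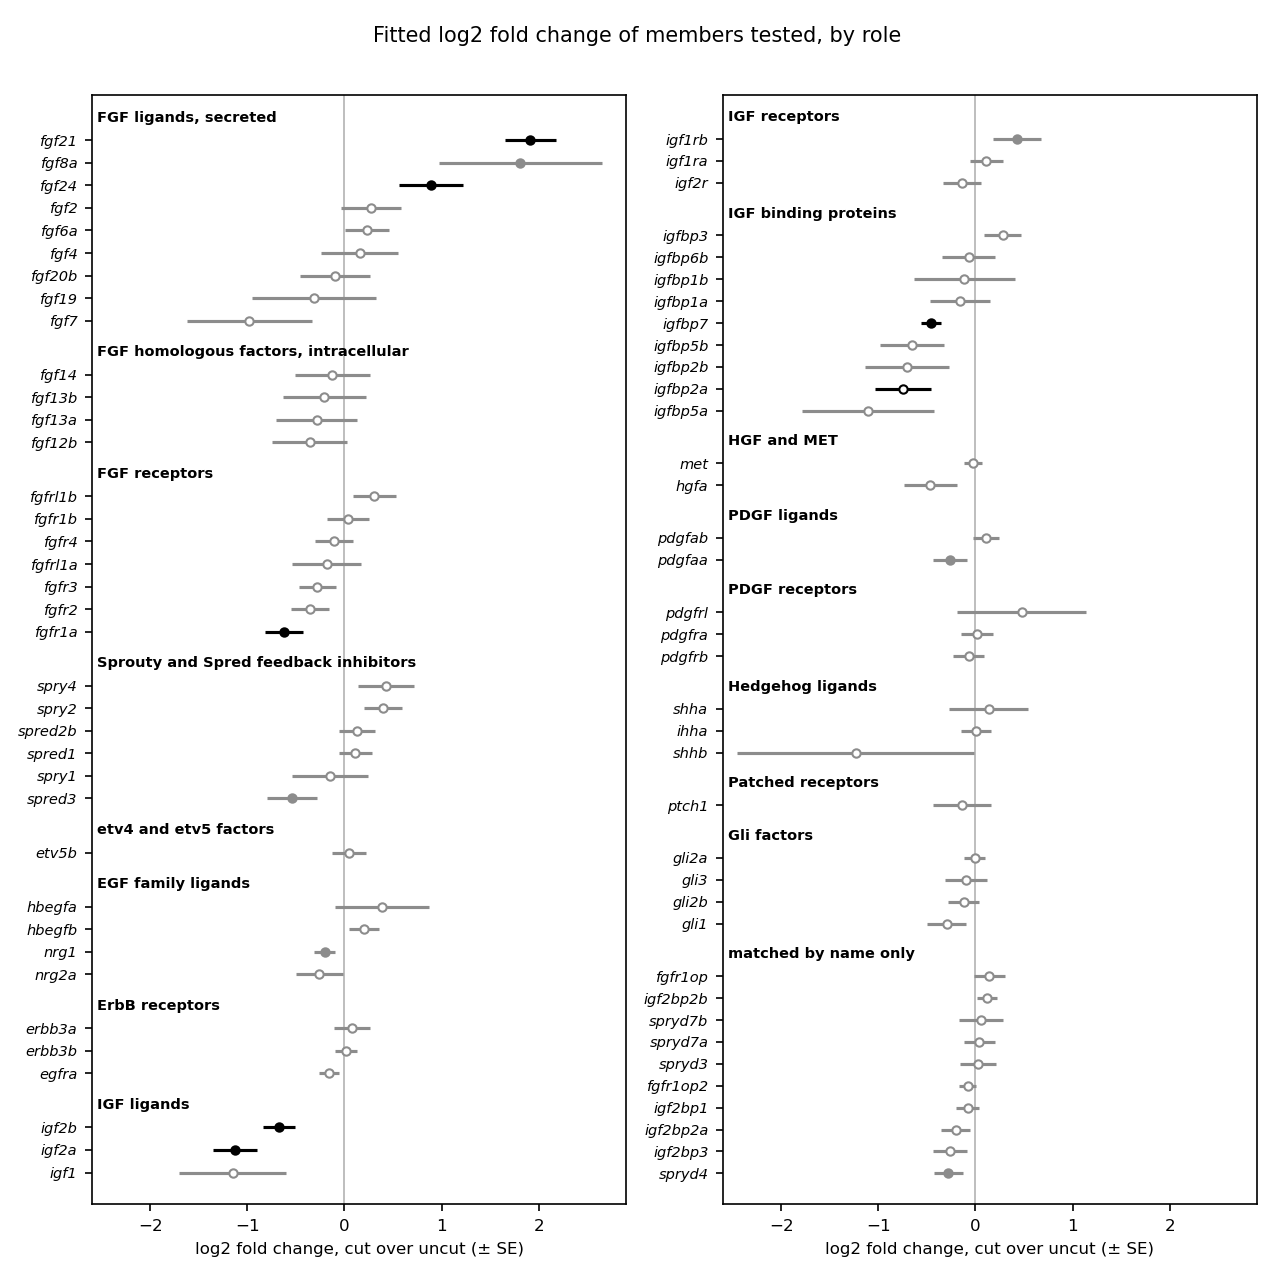
Fitted log2 fold change (cut over uncut guts, x axis, with its standard error as a line) of all but 1 of the 75 members tested, grouped by role. Black marks an unadjusted p under 0.05 and a filled point marks groups that do not overlap; fgf21 lies farthest to the right at 1.91, and the 3 IGF ligands lie left of -0.6.

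Secreted FGF ligands held both the largest positive log2 fold change of the members tested and 15 of the 25 members too low to test. Of 24 such genes 9 were tested. Their log2 fold changes had a median of 0.23, and 6 were above 0 (66.7%, against 50.5% of all genes). Both values count fgf8a, which passed the expression filter only through the cut libraries, where it was higher. Without the filter the median was 0.11. fgf21 encodes an endocrine FGF that in mammals is released by liver and other organs under fasting and stress. It had 4.88, 5.55 and 3.41 CPM in cut guts, against 1.09, 1.26 and 1.31 CPM in uncut guts. These values came from 127, 123 and 79 counts in cut guts, against 27, 27 and 29 in uncut guts. All 3 cut libraries lay more than 2 CPM above the highest uncut one. The log2 fold change of fgf21 was 1.91 (SE 0.26, unadjusted p = 0.000206, rank 15 of 11466 genes by p), which missed the threshold over all genes in edgeR (adjusted p = 0.149) and passed in DESeq2 (adjusted p = 9.56e-06, and 0.000319 with the replicate block). Within pairs 1, 2 and 3 the log2 ratio was 2.16, 2.14 and 1.38. Over 18 alternatives the log2 fold change stayed between 1.76 and 2.09, and 3 of them, all in DESeq2, passed. Hepatocyte markers were lower in cut guts within each pair (log2 ratio -0.74, -0.28 and -1.06), the opposite direction to fgf21. Exocrine pancreas markers were higher in pairs 1 and 3 and lower in pair 2 (0.91, -0.32 and 1.06). Their part in the fgf21 difference was not tested.

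fgf24 and fgf8a are related FGFs of the FGF8 subfamily that pattern appendages and other organs of the zebrafish embryo. fgf24 had 1.84, 1.40 and 1.60 CPM in cut guts, against 1.21, 0.698 and 0.679 CPM in uncut guts. The groups did not overlap, with uncut replicate 1 nearest to the cut libraries, and the log2 fold change was 0.89 (SE 0.33, unadjusted p = 0.0329, edgeR adjusted p = 0.570). fgf8a had 0.884, 0.948 and 0.905 CPM in cut guts and 0.566, 0 and 0.181 CPM in uncut guts, from 23, 21 and 21 counts in cut guts against 14, 0 and 4 in uncut guts. The cut libraries agreed closely while the uncut ones spread from none to 14 counts. The uncut libraries alone would not have brought fgf8a past the expression filter. It was tested because of the cut libraries, where it was higher, so its values are given as a description. Its log2 fold change was 1.81 (SE 0.84, unadjusted p = 0.0709), and between 1.26 and 3.33 over the alternatives. Epidermal markers summed to 3212 to 5309 CPM in cut guts and 2323 to 3774 CPM in uncut guts. This sum was also higher in cut guts within each pair (log2 ratio 0.49, 0.47 and 0.39). Its largest parts were krt4 and krt91. The markers icn, ppl, evpla and anxa1c went the other way in pair 1, and ppl did so in pair 3 too. The part of the epidermal markers in the values of fgf24 and fgf8a was not tested.

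fgf19, whose product in mammals is the intestinal hormone that restrains bile acid synthesis, spread widely, with 6.65, 3.02 and 1.68 CPM in cut guts and 7.65, 1.95 and 4.53 CPM in uncut guts. The groups overlapped, and the log2 fold change of -0.31 was smaller than its standard error of 0.64. The replicate 1 library was the highest in each group. fgf6a, fgf2, fgf4, fgf20b and fgf7 were the other ligands tested, with log2 fold changes from -0.98 (fgf7) to 0.27 (fgf2) and overlapping groups. The fgf7 value was -0.41 without the replicate 1 libraries. fgf6a was higher in all 3 pairs, but by log2 ratios of only 0.25, 0.23 and 0.22. Among the 15 ligands below the filter, 4 had 0 counts in all 6 libraries (fgf1a, fgf16, fgf20a, fgf22). fgf10a, a mesenchymal ligand of organ buds in vertebrates, had 1 count in the whole table. fgf3 had 7, 4 and 7 counts in cut guts against 36, 0 and 3 in uncut guts, so that uncut replicate 1 held most of them. fgf8b had 1, 0 and 5 counts in cut guts and 0 in each uncut library. The intracellular FGF homologous factors, which bind sodium channels and not FGF receptors, had 4 of 6 members tested, all with negative log2 fold changes between -0.36 and -0.12 and overlapping groups.

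**Figure D2:**
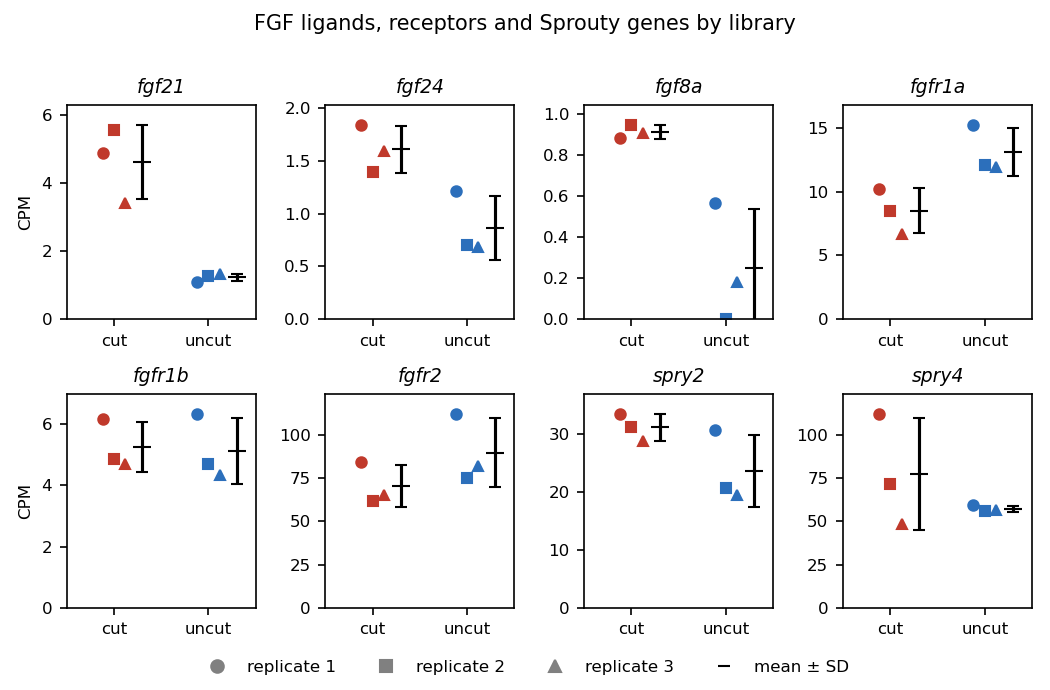
CPM (y axis, from 0) of 8 FGF pathway genes in the 3 cut and the 3 uncut libraries, with the replicate number as the symbol and the mean ± SD beside the points (a bar is not drawn below 0). The groups are apart for fgf21, fgf24, fgf8a and fgfr1a, while for fgfr1b, fgfr2, spry2 and spry4 they overlap.

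All 7 FGF receptor genes were tested, and 5 were lower in cut guts, with a median log2 fold change of -0.18. fgfr1a, which encodes 1 of the zebrafish FGFR1 copies, had 10.3, 8.53 and 6.73 CPM in cut guts, against 15.3, 12.1 and 12.0 CPM in uncut guts. Every cut library lay below every uncut one, at a log2 fold change of -0.63 (SE 0.19, unadjusted p = 0.0161, edgeR adjusted p = 0.506, DESeq2 adjusted p = 0.225). fgfr2, the receptor of epithelia for mesenchymal FGFs, was named after its values were seen. It had 84.3, 61.4 and 65.1 CPM in cut guts and 112, 74.7 and 82.0 CPM in uncut guts. The groups overlapped, with both replicate 1 libraries high, but within pairs 1, 2 and 3 the log2 ratio was -0.41, -0.28 and -0.33. Its unadjusted p was 0.119 without and 0.00617 with the replicate block. fgfr3 was likewise lower in all 3 pairs (-0.27, -0.43 and -0.12). fgfr4, the receptor that in mammalian liver answers the intestinal FGF hormone, had 103, 72.8 and 61.7 CPM in cut guts against 92.2, 80.6 and 82.9 CPM in uncut guts, a log2 fold change of -0.11 (SE 0.19) with overlapping groups. fgfr1b stood at 5.25 ± 0.813 CPM in cut guts and 5.13 ± 1.07 CPM in uncut guts (mean ± SD, n = 3 in each group, as in all such values). The decoy receptor genes fgfrl1a and fgfrl1b had log2 fold changes of -0.18 and 0.31, both with overlapping groups. In 6 of the 7 receptor genes the replicate 1 library was the highest in both groups. This held for 33 of the 75 members tested, against 27.2% of all genes.

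The feedback inhibitors and ETS factors, which report on FGF and EGF receptor activity in many tissues, did not move as one. spry4 had 112, 71.3 and 48.4 CPM in cut guts and 57.3 ± 1.80 CPM in uncut guts, whose libraries had 1468, 1204 and 1251 counts. The uncut libraries were close together, while the cut ones lay on both sides of them and spread more than 2-fold. The difference was 0.43 on the log2 scale (SE 0.29, unadjusted p = 0.182), and 0.08 without the replicate 1 libraries. spry2, named after its values were seen, had 33.5, 31.2 and 28.8 CPM in cut guts, against 30.8, 20.7 and 19.5 CPM in uncut guts. It was higher in cut guts in all 3 pairs, by log2 ratios of 0.12, 0.59 and 0.56, at an unadjusted p of 0.0790 without and 0.0204 with the replicate block. Without the replicate 1 libraries DESeq2 called spry2 (log2 fold change 0.56, adjusted p = 0.0186) and edgeR did not (0.0549). spred3 lay below without overlap, at 1.61, 1.62 and 1.29 CPM in cut guts and 1.74, 2.37 and 2.49 CPM in uncut guts (log2 fold change -0.54, SE 0.25, unadjusted p = 0.0747). spry1, spred1 and spred2b had log2 fold changes between -0.15 and 0.13 with overlapping groups. etv5b had 65.6, 44.5 and 43.8 CPM in cut guts against 45.8, 49.9 and 53.3 CPM in uncut guts. Its log2 fold change of 0.05 (SE 0.18) rested on cut replicate 1 and was -0.23 without the replicate 1 libraries. etv4 and etv5a had 0 counts in every library, and whether they were not transcribed or not counted cannot be told apart here.

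Of 28 tested genes in a list of the Ras and MAP kinase route below these receptors, 22 lay above 0 on the log2 scale (median 0.05). Over all genes 50.5% lay above 0. In edgeR and in DESeq2 0 passed over all genes in either direction. In edgeR 2 higher and 0 lower had an unadjusted p under 0.05 (4.32% and 3.55% of all genes). The kinase gene map2k1 stood at 20.5 ± 2.63 CPM in cut guts and 15.8 ± 0.691 CPM in uncut guts, without overlap (log2 fold change 0.38, SE 0.13, unadjusted p = 0.0215). The Ras gene hrasb had means of 11.8 CPM in cut guts and 7.64 CPM in uncut guts (0.62, SE 0.22, unadjusted p = 0.0291), with overlapping groups. With the replicate block the unadjusted counts of this list were 5 higher and 0 lower (6.99% and 6.11% of all genes). With it 0 passed in edgeR or DESeq2. With replicate 1 left out of both groups edgeR still passed 0, while DESeq2 called 2 higher and 1 lower (2.47% and 3.69% of all genes). The higher ones were hrasb (adjusted p = 0.0279) and dusp6 (0.0144), a MAP kinase phosphatase gene that FGF signals induce. dusp6, named after its values were seen, had 25.4, 64.3 and 46.7 CPM in cut guts and 41.7, 35.6 and 29.7 CPM in uncut guts. It was lower in cut guts in pair 1 and higher in pairs 2 and 3, and its log2 fold change was 0.35 (SE 0.33) with all libraries and 0.75 in DESeq2 without replicate 1. The lower one was fosl1a, an AP-1 factor gene (DESeq2 adjusted p = 0.0393), whose log2 fold change of 1.06 (SE 0.84) with all libraries came from 210 CPM in cut replicate 1 and was -0.73 in DESeq2 without replicate 1.

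EGF family ligands and ErbB receptors had log2 fold changes between -0.26 (nrg2a) and 0.39 (hbegfa). hbegfa, a membrane-bound ligand of the EGF receptor, had 111, 34.5 and 34.2 CPM in cut guts and 54.3, 38.5 and 44.1 CPM in uncut guts. Cut replicate 1 alone lay above all uncut libraries, by about 2-fold over its pair (log2 ratio 1.03), while the other pairs had log2 ratios of -0.16 and -0.37. The log2 fold change was 0.39 (SE 0.48) with all libraries and -0.42 without cut replicate 1. hbegfb had a log2 fold change of 0.20 with overlapping groups. nrg1, an ErbB3 and ErbB4 ligand, was lower in all 3 pairs and without overlap, but by a log2 fold change of only -0.20 (SE 0.11). egf itself had 0 counts in all 6 libraries. egfra, the EGF receptor, had 54.5, 62.3 and 53.9 CPM in cut guts against 63.9, 68.5 and 58.2 CPM in uncut guts. It was lower in each pair by log2 ratios between -0.23 and -0.11, and its log2 fold change was -0.16 (SE 0.11, unadjusted p = 0.183). erbb3a and erbb3b, the kinase-poor co-receptors, had log2 fold changes of 0.08 (SE 0.18) and 0.02 (SE 0.12). erbb4a had 4 counts in the whole table, and erbb2, the partner of the other ErbB receptors, had 0 counts in every library. Of 9 tested genes in a list of other EGF pathway members, 8 had positive log2 fold changes (median 0.13), as did 50.5% of all genes. In edgeR 0 of the listed genes passed, and 0 had an unadjusted p under 0.05. DESeq2 called 0 without the replicate block and 1 higher with it (1.43% of all genes). The gene called was stat3, which encodes a transcription factor and was chosen after its values were seen (adjusted p = 0.00713). It had 66.4, 142 and 141 CPM in cut guts and 50.0, 75.3 and 85.4 CPM in uncut guts, and was higher in each pair. Its log2 fold change was 0.73 (SE 0.34), at an edgeR unadjusted p of 0.0720 without and 0.00222 with the replicate block. With replicate 1 left out of both groups, stat3 passed in edgeR (adjusted p = 0.0206) and in DESeq2 (1.64e-07), and was the 1 gene of the list that did. Over all genes 2.37% then passed in edgeR in either direction, and 2.47% were called higher in DESeq2.

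All 3 IGF ligand genes were lower in cut guts in all 3 pairs. igf2a had 10.4, 17.5 and 14.0 CPM in cut guts, against 35.5, 24.3 and 31.3 CPM in uncut guts. The groups were apart, with cut replicate 1 lowest and uncut replicate 1 highest. The igf2a log2 fold change was -1.12 (SE 0.23, unadjusted p = 0.00202, rank 67 by p), at an adjusted p of 0.342 in edgeR, 0.00248 in DESeq2 and 0.00538 in DESeq2 with the replicate block. It ran from -1.32 to -0.83 over 18 alternatives, of which 3, all in DESeq2, passed. igf2b, the other IGF2 copy, had 14.4, 19.8 and 15.9 CPM in cut guts, against 24.6, 24.2 and 31.2 CPM in uncut guts. Again no libraries overlapped, and the log2 fold change was -0.68 (SE 0.17, unadjusted p = 0.00559, adjusted p = 0.415 in edgeR and 0.0653 in DESeq2). igf1, the growth hormone dependent ligand, was named after its values were seen. It had 0.538, 1.35 and 1.98 CPM in cut guts and 1.62, 4.23 and 2.76 CPM in uncut guts. It rested on 14, 30 and 46 counts in cut guts and 40, 91 and 61 in uncut guts. Uncut replicate 1 lay among the cut libraries, and the log2 fold change was -1.15 (SE 0.55, unadjusted p = 0.0763, and 0.0154 with the replicate block).

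**Figure D3:**
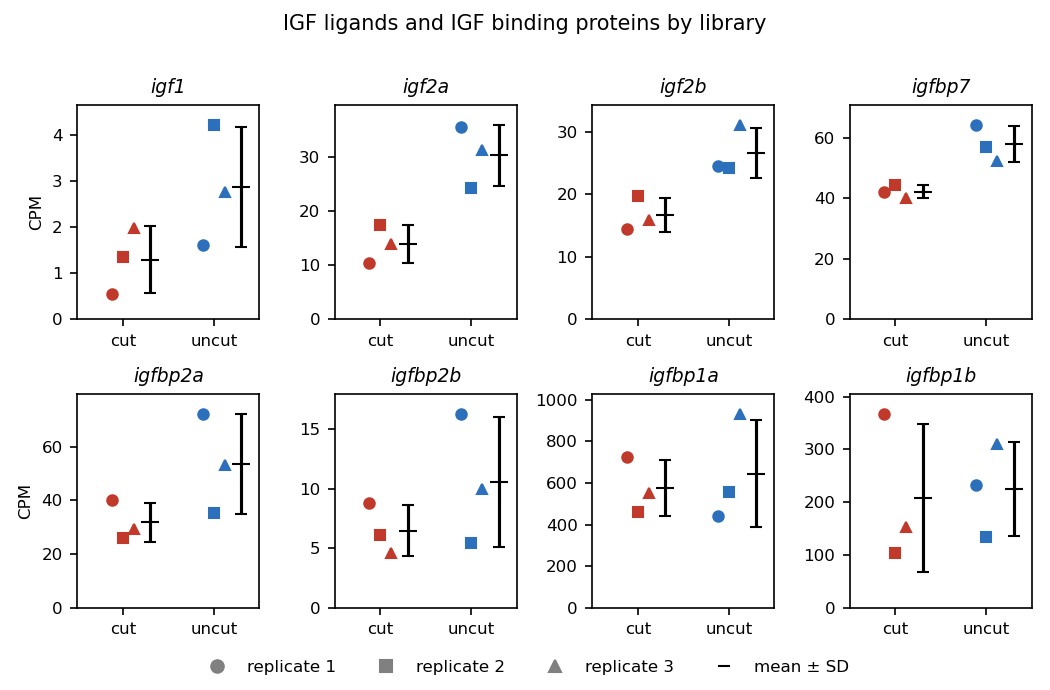
CPM (y axis, from 0) of the 3 IGF ligand genes and 5 IGF binding protein genes in the 3 cut and 3 uncut libraries, with the replicate number as the symbol and the mean ± SD beside the points. The groups are apart for igf2a, igf2b and igfbp7; igfbp1a and igfbp1b overlap widely.

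IGF binding proteins carry IGFs in the extracellular fluid and either block or prolong their action. Of 10 such genes 9 were tested, and 8 of the 9 log2 fold changes were negative (median -0.46). igfbp7, a binding protein of low affinity for IGFs that lies in vessel walls and stroma, had 42.0, 44.3 and 40.2 CPM in cut guts, against 64.3, 56.8 and 52.4 CPM in uncut guts. Both groups were tight and apart, at a log2 fold change of -0.46 (SE 0.11, unadjusted p = 0.00433, adjusted p = 0.412 in edgeR and 0.0536 in DESeq2). Endothelial markers (10 of 10 found, with lyve1b at 0) summed to 119 to 159 CPM in cut guts and 162 to 166 CPM in uncut guts. Within pairs 1, 2 and 3 their log2 ratios were -0.06, -0.12 and -0.45, and those of igfbp7 were -0.62, -0.36 and -0.38. The part of the endothelial markers in the igfbp7 value was not tested. igfbp2a had 40.2, 26.1 and 29.4 CPM in cut guts and 72.4, 35.2 and 53.2 CPM in uncut guts. The groups overlapped, but each cut library lay below its pair, by log2 ratios of -0.85, -0.43 and -0.85. Its log2 fold change was -0.75 (SE 0.29, unadjusted p = 0.0393) without the block and -0.71 (0.00166) with it, and DESeq2 called it only with the block (adjusted p = 0.00489).

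igfbp1a, a binding protein that fasting and low oxygen induce in zebrafish, had 723, 458 and 551 CPM in cut guts and 441, 558 and 933 CPM in uncut guts. The highest and the lowest of its 6 values were both in uncut libraries, and the log2 fold change of -0.16 was smaller than its standard error of 0.31. Its copy igfbp1b had 368, 103 and 153 CPM in cut guts and 232, 133 and 310 CPM in uncut guts. Both genes were higher in cut guts in pair 1 and lower in pairs 2 and 3. igfbp5b, named after its values were seen, had 36.8, 31.0 and 34.8 CPM in cut guts against 83.3, 33.8 and 43.8 CPM in uncut guts, and its log2 fold change of -0.65 became -0.25 without the replicate 1 libraries. igfbp5a and igfbp2b were likewise highest in uncut replicate 1. Their log2 fold changes of -1.11 and -0.71 became -0.49 and -0.54 without the replicate 1 libraries. igfbp3 had the only positive value of the group, 0.28 (SE 0.19), which was 0.01 without the replicate 1 libraries.

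The IGF ligands, igfbp2a and the summed hepatocyte markers were all lower in cut guts in each pair. In mammals and fish the liver is a main source of circulating IGFs. In pairs 1, 2 and 3 the summed hepatocyte markers had log2 ratios of -0.74, -0.28 and -1.06. Those of igf2b were -0.77, -0.29 and -0.98, and those of igf2a -1.77, -0.48 and -1.16. For igfbp2a they were -0.85, -0.43 and -0.85. Pair 2 had the smallest difference in each of these 4. igf1 differed from this order, with -1.59, -1.65 and -0.48. igfbp1a (0.71, -0.28 and -0.76), igfbp1b (0.67, -0.37 and -1.02) and igfbp2b (-0.90, 0.16 and -1.12) were not lower in every pair. Among the cut libraries the hepatocyte sum was highest in replicate 1, at 11144 CPM. There igfbp2a was highest too (40.2 CPM), while igf2a (10.4 CPM), igf2b (14.4 CPM) and igf1 (0.538 CPM) were lowest. Of 12 hepatocyte markers tested, 2 were lower and 0 higher at an unadjusted p under 0.05 (median log2 fold change -0.63). Over all genes 3.55% were lower and 4.32% higher at that level. The part of the hepatocyte markers in the lower IGF values was not tested.

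**Figure D4:**
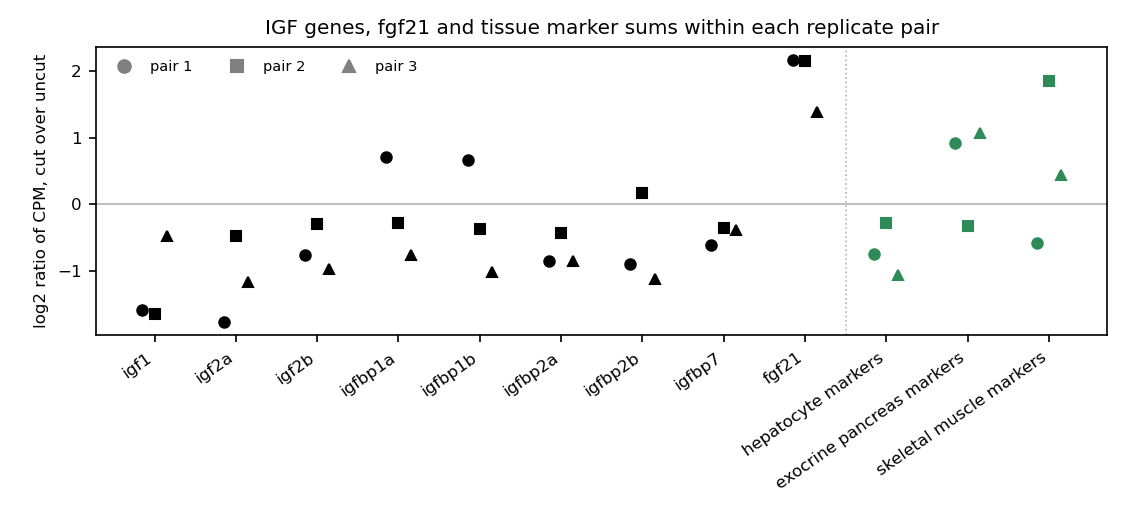
Log2 ratio of CPM, cut over uncut, within replicate pairs 1, 2 and 3 (symbols) for 8 IGF genes and fgf21 (black) and for the summed markers of 3 other tissues (green). The 3 IGF ligands, igfbp2a, igfbp7 and the hepatocyte markers lie below 0 in all pairs; fgf21 lies above 1.3 in all pairs.

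Genes of the IGF receptors had log2 fold changes between -0.14 and 0.43. igf2r, which clears IGF2 and sorts lysosomal enzymes in mammals, had 98.0, 134 and 114 CPM in cut guts against 97.7, 150 and 134 CPM in uncut guts, at a log2 fold change of -0.14 (SE 0.19). igf1ra had 0.11 (SE 0.17). igf1rb lay above without overlap, at 2.34, 2.12 and 2.11 CPM in cut guts and 1.94, 1.67 and 1.27 CPM in uncut guts, but its log2 fold change of 0.43 (SE 0.25) came from 28 to 61 counts per library (unadjusted p = 0.132). Of 27 tested genes in a list of others in the IGF and insulin pathway, 4 lay above 0 and the median log2 fold change was -0.15. Over all genes 50.5% lay above 0. In edgeR 0 of the 27 passed, and 3 lower and 0 higher ones had an unadjusted p under 0.05 (3.55% and 4.32% of all genes). DESeq2 called foxo1a lower (0.597% of all genes). foxo1a encodes a transcription factor that insulin and IGF signals exclude from the nucleus. It averaged 27.8 CPM in cut guts and 55.3 CPM in uncut guts, without overlap (log2 fold change -0.99, SE 0.23, adjusted p = 0.412 in edgeR and 0.0130 in DESeq2). With replicate 1 left out of both groups, edgeR passed it too (adjusted p = 0.0238). The protease gene htra1b (-0.47, SE 0.15) and the insulin receptor copy insrb (-0.22, SE 0.09) were the other members under an unadjusted p of 0.05, both without overlap. With the replicate block the unadjusted counts of this list were 1 higher and 6 lower (6.99% and 6.11% of all genes). In that setting 0 passed in edgeR, and DESeq2 called foxo1a lower (1.08% of all genes). Without replicate 1 of both groups, edgeR passed foxo1a. Of the 27, DESeq2 then called foxo1a and htra1b lower (3.69% of all genes) and igfn1.1 higher (2.47%). igfn1.1 is a gene of an immunoglobulin and fibronectin domain protein that is in the list by its symbol. DESeq2 also called stc1l higher there (adjusted p = 0.0343), and edgeR did not (adjusted p = 0.488). This listed gene was below the filter with all 6 libraries. Without replicate 1 it passed the filter only through the cut libraries, where it was higher. It had 7, 27 and 702 counts in cut guts and 0 in each uncut library, so cut replicate 3 held most of them.

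Hedgehog ligands, ptch1 and Gli factors held 0 members with an unadjusted p under 0.05 in edgeR, and 1 (gli1) with the replicate block. ihha, the indian hedgehog gene of gut epithelium, had 59.8, 59.6 and 45.5 CPM in cut guts against 62.3, 47.6 and 54.5 CPM in uncut guts. The fitted difference was 0.00 on the log2 scale (SE 0.15), with a sign that turned under 6 of 18 alternatives. shha had 1.98 ± 0.589 CPM in cut guts and 1.80 ± 0.834 CPM in uncut guts. shhb, named after its values were seen, had 16, 7 and 18 counts in cut guts and 82, 0 and 15 in uncut guts. Its log2 fold change of -1.23 (SE 1.22) came from uncut replicate 1 and was 0.66 without the replicate 1 libraries. The receptor and target gene ptch1 was lower in all 3 pairs by log2 ratios of -0.05, -0.16 and -0.27 (log2 fold change -0.14, SE 0.30). gli2a had 18.0, 16.5 and 16.6 CPM in cut guts and 17.7, 17.8 and 15.8 CPM in uncut guts, a log2 fold change of -0.01 (SE 0.11). gli1, the Gli gene that is itself a target, was named after its values were seen and stood at 11.5 ± 2.89 CPM in cut guts and 14.1 ± 1.73 CPM in uncut guts. It was lower in each pair (log2 ratio -0.11, -0.44 and -0.40), with an unadjusted p of 0.190 without and 0.0493 with the replicate block. Of 25 tested genes in a list of others in the Hedgehog pathway, 5 lay above 0 on the log2 scale (median -0.13). Over all genes 50.5% lay above 0. Without the replicate 1 libraries smo, ccnd1, scube1, sufu and gas1b turned positive in edgeR and cdon turned negative. In edgeR 0 of the listed genes passed and 0 had an unadjusted p under 0.05. That count was 0 higher and 3 lower (lrp2a, foxf2a and scube2) with the replicate block (6.99% and 6.11% of all genes). DESeq2 called 0 of the listed genes, and 1 lower with the block (1.08% of all genes). Without replicate 1 of both groups 0 passed in either tool. The gene called, lrp2a, was chosen after its values were seen and encodes an endocytic receptor that binds Sonic hedgehog in mammals. It had 22.1, 6.68 and 8.06 CPM in cut guts and 33.3, 10.9 and 12.5 CPM in uncut guts, lower in each pair (adjusted p = 0.0360 in DESeq2 with the block). Lysosome-rich enterocytes are absorptive cells that take up protein. Their markers (6 of 8 found, 0 at 0 counts) summed to 1818 to 5095 CPM in cut guts and 4683 to 9128 CPM in uncut guts. Within pairs 1, 2 and 3 the log2 ratios of this sum were 0.12, -1.80 and -1.96, and those of lrp2a were -0.60, -0.70 and -0.63. The part of these markers in the lrp2a value was not tested.

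HGF and PDGF signalling genes had log2 fold changes between -0.46 (hgfa) and 0.48 (pdgfrl, named after its values were seen). met, the HGF receptor, had 19.4, 21.4 and 20.1 CPM in cut guts against 19.8, 21.2 and 21.1 CPM in uncut guts, a log2 fold change of -0.03 (SE 0.10). hgfa, its ligand, was lower in all 3 pairs (log2 fold change -0.46, SE 0.27, unadjusted p = 0.133), with overlapping groups. pdgfab had 23.5, 19.8 and 17.5 CPM in cut guts and 19.2, 19.3 and 18.0 CPM in uncut guts (0.10, SE 0.13). pdgfaa, the other PDGF-A copy, lay below without overlap at 5.78 ± 0.203 CPM in cut guts and 6.93 ± 1.26 CPM in uncut guts (-0.26, SE 0.17). The mesenchymal receptor genes pdgfra and pdgfrb had log2 fold changes of 0.02 (SE 0.16) and -0.07 (SE 0.16). For pdgfra the values were 28.3, 27.8 and 19.5 CPM in cut guts and 26.1, 25.3 and 23.2 CPM in uncut guts. In a list of other HGF and MET pathway genes and their relatives, among them mst1, 4 of 8 tested genes were positive (50.5% of all genes). The median was 0.00. In edgeR 0 passed and 0 had an unadjusted p under 0.05, and DESeq2 called 0. With the replicate block 1 was lower at that level in edgeR (mst1), as were 6.11% of all genes.

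Many of these genes are present in zebrafish as duplicated copies, and the ratio of counts of copy a to copy b within a library does not depend on library scaling. Of 12 copy pairs with counts in every library, the ratio did not overlap between the groups in 3. Over all genes, taken singly, 13.9% did not overlap. The fgfr1a to fgfr1b ratio was 1.66, 1.75 and 1.43 in cut guts, against 2.41, 2.58 and 2.75 in uncut guts. Thus fgfr1a was lower relative to its own copy in each cut library. The igf2a to igf2b ratio was 0.721, 0.884 and 0.880 in cut guts and 1.45, 1.01 and 1.00 in uncut guts. The igf2a to igf2b difference of -0.46 on the log2 scale was -0.28 without uncut replicate 1. The igf1ra to igf1rb ratio was 3.33, 3.09 and 2.88 in cut guts and 3.52, 3.92 and 4.32 in uncut guts. Groups of 3 that do not overlap always have a two-sided p of 0.1 in an exact permutation test over libraries, the lowest value possible. Adjusted over the 12 pairs by Benjamini-Hochberg, it was 0.4 for each. Each of these 3 ratios also holds a gene given above for groups that did not overlap, so they add no separate support. They are given as a description. The other 9 pairs overlapped, among them hbegfa with hbegfb, erbb3a with erbb3b and igfbp1a with igfbp1b. How reads shared by the copies were counted is not known, so these ratios carry that uncertainty.

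**Figure D5:**
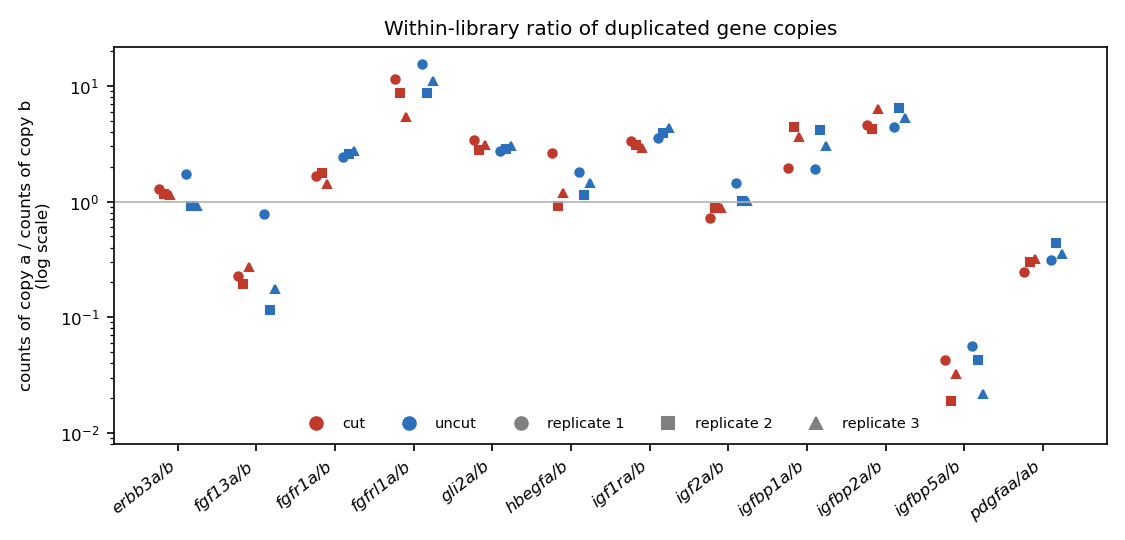
Ratio of the counts of copy a to copy b within each library (y axis, log scale) for 12 pairs of duplicated genes, with cut libraries left of uncut ones in each pair and the replicate number as the symbol. The groups are apart for fgfr1a/b, igf1ra/b and igf2a/b.

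The 10 genes that share only a name stem had 5 positive and 5 negative log2 fold changes, all between -0.28 and 0.14. Among them igf2bp1, an RNA-binding protein gene, had 183, 226 and 220 CPM in cut guts against 214, 219 and 233 CPM in uncut guts. spryd4 alone of the 10 had groups without overlap, lower at a log2 fold change of -0.28 (SE 0.15).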

How the data were processed

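Libraries were made from polyadenylated RNA with a stranded kit and read as 100 bp paired ends. Per the labels' protocols, FastQC 0.11.8 was the quality check and danRer11 the genome for alignment. The authors deposited raw counts per gene symbol, without normalization. Aligner, counter, strand setting and annotation: not given in the sources used here. All 100 members were found in a RefSeq gene table of the GRCz12tu assembly, 99 by their current symbol.

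Low genes were removed by filterByExpr (count 10, total 15). A robust quasi-likelihood model was fitted in edgeR 4.0.16 (R 4.3.3) after TMM scaling, whose factors ran from 0.935 to 1.05. Group was the only term. P-values are two-sided and adjusted by Benjamini-Hochberg over all 11466 genes tested, at a threshold of 0.05. The standard error is the log2 fold change over the root of F. CPM uses TMM-scaled library sizes. DESeq2 1.42.0 and voom in limma 3.58.1 were alternatives, beside other scalings and filters, robust fitting off, the replicate block and left-out libraries. Each tool was tested on simulated counts.

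Groups share replicate numbers. Deviations from group means correlated between same-numbered libraries at 0.450, 0.512 and 0.177 over the genes tested. Between libraries of different numbers the correlations ran from -0.527 to 0.118. The replicate numbers were taken to pair the libraries, with least ground by correlation for pair 3. The sample titles carry a further number, which is the same in both groups for replicates 2 and 3. For replicate 1 it is missing from the cut title. What that number stands for is not given. No libraries of a group were copies, with a chi-square of 26.4 to 243 per degree of freedom between them. Members, pathway and marker lists and tests were chosen with earlier results of these data known. Named genes were those with an unadjusted p under 0.05, those without overlap and with a log2 fold change of at least 0.5 in size, and the highest mean CPM of each role, uncorrected for gene length. A further member that this rule names is not reported here, though counts over the members include it. Every other member given values was chosen after they were seen.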

Additional observations from a re-analysis of the deposited data

How the results depend on the processing

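Scaling, filtering and robust fitting left the members' adjusted calls at 0 and moved each of their other counts by at most 1, and the shift of the all-gene median under another scaling was 0.0101 or less on the log2 scale. The tool, the block and single libraries mattered more. The 2 genes higher and 0 lower over all genes became 97 and 67 in DESeq2, 0 and 0 in limma-voom and at an adjusted p under 0.01, 3 and 1 with the replicate block, 99 and 172 in edgeR without replicate 1, 164 and 124 in DESeq2 with the block and 277 and 414 in DESeq2 without replicate 1. The last 2 settings were chosen after seeing the data, as was leaving out libraries for the copy ratios. Leaving out single libraries gave 0 to 4 genes higher and 0 to 1 lower. The 0 members past the threshold became 1 higher and 1 lower in DESeq2, 1 and 2 in DESeq2 with the block and 2 and 1 in DESeq2 without replicate 1, and stayed at 0 when any 1 library was left out. At an unadjusted p under 0.05 the 2 higher and 5 lower members became 3 and 8 with the block in either tool, 5 and 13 without replicate 1 (3 and 10 in DESeq2), and 1 to 5 and 4 to 9 when 1 library was left out. The 4 members above and 9 below without overlap became 6 and 25 without replicate 1, and 4 to 11 and 11 to 18 without 1 library. Fewer libraries make separation easier by construction, and the shares of all genes without overlap at these settings are not given here.

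Signs turned for 9 of the members that the naming rule gave, each with a log2 fold change smaller than its standard error. With single libraries left out, hbegfa ran from -0.42 to 0.67, etv5b from -0.18 to 0.15, fgf19 from -1.01 to 0.23, fgfr4 from -0.35 to 0.043, gli2a from -0.060 to 0.025, ihha from -0.086 to 0.12, igfbp1a from -0.37 to 0.21, pdgfab from -0.027 to 0.20 and pdgfra from -0.084 to 0.17. Without replicate 1 of both groups, edgeR and DESeq2 gave -0.27 and -0.28 for hbegfa, -0.23 and -0.24 for etv5b, -0.011 and -0.015 for pdgfab, and -0.048 and -0.052 for pdgfra. DESeq2 with the block gave -0.0081 for pdgfra and -0.0073 for ihha. ihha was -0.0034 with DESeq2 size factors and -0.0035 in DESeq2, and gli2a 0.0035 with upper-quartile scaling and 0.0047 with library size only. The cause was not tested. Among the members the block changed no call in edgeR, and in DESeq2 it added only the call of igfbp2a. Among the listed pathway genes it added stat3 and lrp2a in DESeq2. Depth limits the 25 members below the filter and the 16 of 75 tested members that have under 100 counts in every library, among them fgf8a, fgf24, igf1, igf1rb, spred3, shha and shhb.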
